A study of Mus musculus with 15 samples.

Results

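Primitive endoderm regulators were followed in mouse embryonic stem cells depleted of Tet1 or Sin3A. The 9 genes were Gata4, Gata6, Sox17, Sox7, Foxa2, Hnf4a, Dab2, Pdgfra and Cubn. They were found by symbol through the platform annotation, and each had 1 of the 21212 probe sets measured. E14TG2a.4 cells, a feeder-independent line kept in serum and leukaemia inhibitory factor at passage 17, had received lentiviral short hairpin RNAs (shRNAs), and all groups, controls included, were kept in 2 µg per ml puromycin for 72 hours from 36 hours after transduction. The 5 groups of 3 arrays were Tet1 shRNA 4, Tet1 shRNA 5 and a scrambled shRNA in the Tet1 set, and Sin3A shRNA and its own scrambled shRNA in the Sin3A set. Whether arrays of one group represent independent cultures is not stated, so each p-value reflects array-to-array spread alone, possibly technical.

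Primitive endoderm is the layer of the blastocyst that separates from the epiblast and later forms visceral and parietal endoderm. FGF4 from epiblast cells acts through FGF receptors and the ERK kinases to favour GATA6 over NANOG, and GATA4, SOX17 and SOX7 come on as the fate is fixed. Embryonic stem cells derive from the epiblast and normally hold few such cells, and in arrays of whole cultures a change in the number of cells of a type and a change of RNA per cell cannot be told apart. TET1 oxidises 5-methylcytosine, which in mammals lies mostly at CpG dinucleotides, and SIN3A is the scaffold of a histone deacetylase complex.

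The Tet1 and Sin3a transcripts were lower in all arrays of the matching knockdown. The log2 change was -1.78 for Tet1 with Tet1 shRNA 4, -2.10 with Tet1 shRNA 5, and -1.55 for Sin3a with the Sin3A shRNA. Each was also called in the other knockdown: Sin3a at -0.27 and -0.24 with Tet1 shRNA 4 and 5, and Tet1 at 0.31 with Sin3A shRNA. The embryonic stem cell marker Pou5f1 was bright in all groups, at a mean log2 level of 12.33, 12.33 and 12.28 for Tet1 shRNA 4, Tet1 shRNA 5 and scrambled, and at 12.73 and 12.65 for Sin3A shRNA and its scrambled group. Of 12 such markers 2 rose and 1, Lin28a, fell with each Tet1 shRNA. With Sin3A shRNA 1 rose and 1, Nanog, fell. These calls were 25%, 25% and 16.7% of the list, against 11.6%, 13.8% and 24.8% of all probe sets. The sets appear to have been normalized separately, with array means of 7.08 to 7.11 in the Tet1 set and 8.09 in the Sin3A set, so levels are compared within a set. The lower quartile of all probe sets was 5.42 to 5.58 and the upper 8.66 to 8.78 on arrays of the Tet1 set, and 6.58 to 6.59 and 9.71 in the Sin3A set. The file holds no detection call, so whether a regulator was above background was not known, and a probe's brightness does not rank genes by amount. Replicate 2 of the scrambled group stood apart in the Tet1 set: its deviation from its group correlated with that of replicate 2 of Tet1 shRNA 4 (r = 0.517 across probe sets), and it was the highest of the 3 scrambled arrays for 7 of the 9 regulators. Scrambled replicate 3 of that set was the lowest of them for 6 of the 9. Results that turn on replicate 2 are given with and without it.

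Sox7 rose in all 3 knockdowns, Dab2 fell with Tet1 shRNA 5 and with the Sin3A shRNA, Hnf4a rose with Tet1 shRNA 4 and Cubn with Tet1 shRNA 5. No call was made for Gata4, Gata6, Sox17, Foxa2 or Pdgfra in any comparison with scrambled. A call is a limma p-value under 0.05 after Benjamini-Hochberg adjustment over all probe sets. By this rule 2 of 9 regulators were called with Tet1 shRNA 4, against 11.6% of all probe sets, 3 of 9 with Tet1 shRNA 5, against 13.8%, and 2 of 9 with the Sin3A shRNA, against 24.8%. The median log2 change of the 9 was 0.21, 0.20 and 0.05 in these comparisons, against -0.0032, -0.0044 and 0.0063 over all probe sets. Without scrambled replicate 3 the medians for Tet1 shRNA 4 and 5 were 0.0968 and 0.1081, and that for Sin3A shRNA was -0.0028 without its replicate 1, 0.1152 without its replicate 3 and 0.0755 without scrambled replicate 3 of its set. The Tet1 hairpins share their 3 scrambled arrays, so the values for them are not independent. With Tet1 shRNA 4 2 regulators rose (6.88% of all probe sets did) and 0 fell (4.71%), with Tet1 shRNA 5 2 rose (8.37%) and 1 fell (5.46%), and with Sin3A shRNA 1 rose (12.2%) and 1 fell (12.6%). All knockdown arrays lay above all scrambled arrays for 4, 3 and 2 regulators in these comparisons (14.1%, 17% and 20.4% of all probe sets) and below them for 1 each (10.9%, 11.9% and 20.1%). The number of regulators called with Tet1 shRNA 4, 2 with all arrays, depended on single arrays: it was 5 without scrambled replicate 2, and 1 without scrambled replicate 1 or 3, without replicate 1 or 2 of Tet1 shRNA 4, or without replicate 1 or 2 of Tet1 shRNA 5.

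**Figure D1:**
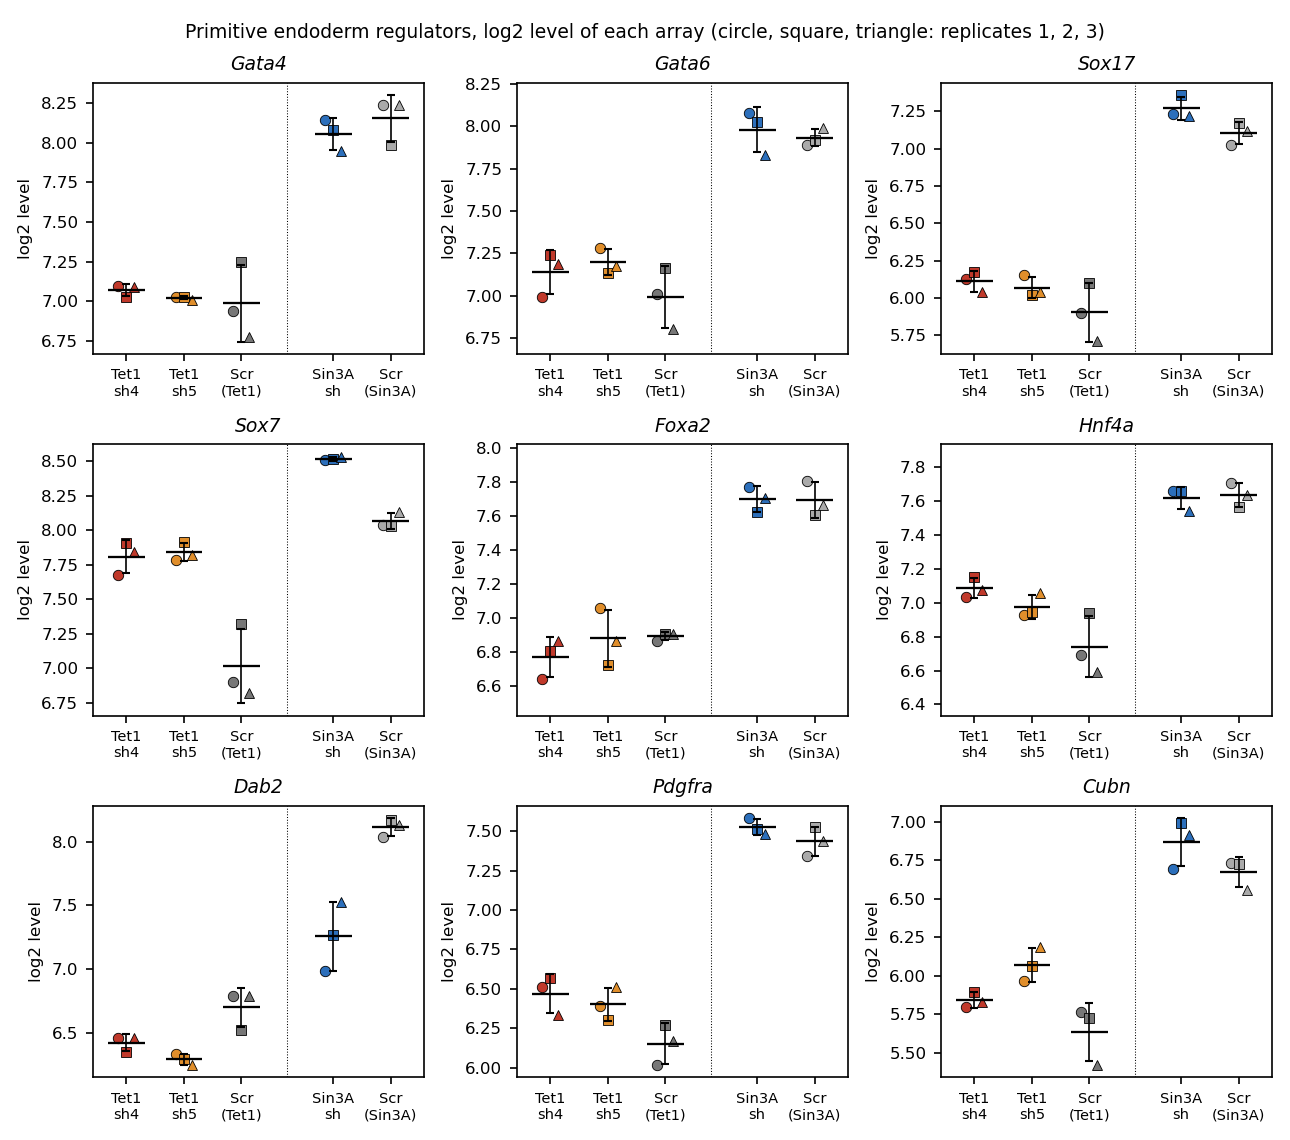
Log2 level of each of the 9 regulators on every array, for Tet1 shRNA 4 (Tet1 sh4), Tet1 shRNA 5 (Tet1 sh5) and scrambled (Scr) in the Tet1 set and, right of the dotted line, Sin3A shRNA and scrambled in the Sin3A set. Bars are the mean and SD of 3 arrays, panels have separate vertical axes, and levels are not comparable across the dotted line. Sox7 lay above its scrambled arrays in all 3 knockdowns and Dab2 lay below, while the scrambled arrays of the Tet1 set spread widely for Gata4, Sox17 and Hnf4a.

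The 250 bases before the annotated starts of the called regulators are shown for those that the RefSeq table held (Dab2, Hnf4a and Cubn), because TET1 acts at methylated CpG. Sequences are from RefSeq, GRCm38.p6, 5′ to 3′, with CpG dinucleotides in capitals.
Dab2, upstream start, chr15:6299539-6299788, plus strand: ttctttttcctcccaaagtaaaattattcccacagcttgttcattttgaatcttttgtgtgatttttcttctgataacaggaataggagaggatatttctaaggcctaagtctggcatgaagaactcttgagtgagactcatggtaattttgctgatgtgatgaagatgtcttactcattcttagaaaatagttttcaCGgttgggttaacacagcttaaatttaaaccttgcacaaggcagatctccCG
Dab2, downstream start, chr15:6386498-6386747, plus strand: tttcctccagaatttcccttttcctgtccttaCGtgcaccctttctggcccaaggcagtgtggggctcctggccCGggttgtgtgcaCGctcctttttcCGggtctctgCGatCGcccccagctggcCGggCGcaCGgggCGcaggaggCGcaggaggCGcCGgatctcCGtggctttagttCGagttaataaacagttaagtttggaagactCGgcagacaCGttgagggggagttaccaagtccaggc
Hnf4a, upstream start, chr2:163506607-163506856, plus strand: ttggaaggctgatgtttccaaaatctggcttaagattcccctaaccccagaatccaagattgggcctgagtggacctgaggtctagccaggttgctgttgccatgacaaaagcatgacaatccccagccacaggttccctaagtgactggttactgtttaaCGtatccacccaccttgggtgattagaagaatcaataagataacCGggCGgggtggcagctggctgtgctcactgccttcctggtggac
Hnf4a, downstream start, chr2:163546905-163547154, plus strand: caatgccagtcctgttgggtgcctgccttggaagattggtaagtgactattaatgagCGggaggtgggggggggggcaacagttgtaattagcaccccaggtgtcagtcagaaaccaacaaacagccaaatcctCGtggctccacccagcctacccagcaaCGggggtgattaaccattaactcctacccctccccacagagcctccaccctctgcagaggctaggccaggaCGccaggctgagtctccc
Cubn, chr2:13491877-13492126, minus strand: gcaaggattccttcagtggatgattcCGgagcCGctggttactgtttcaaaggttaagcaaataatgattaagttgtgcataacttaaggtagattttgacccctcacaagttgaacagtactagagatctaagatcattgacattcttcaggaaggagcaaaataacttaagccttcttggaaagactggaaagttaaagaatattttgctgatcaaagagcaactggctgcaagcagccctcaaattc

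These windows differed in CpG content. The upstream Dab2 window held 2 CpG and the downstream one 17, and of 32851 such windows over all annotated genes 81.2% and 23.5% held at least as many. Hnf4a windows held 3 and 4 (71.0% and 62.2% of windows held as many) and the Cubn window 2 (81.2%). The motif GATAA, a core that GATA factors bind, was searched on both strands and occurred 1 time in the upstream Dab2 window and 1 time in the upstream Hnf4a window, and in 22.6% of all windows. A match is a description of these letters only. These arrays measure neither methylation nor binding.

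GATA4 and GATA6 are the zinc-finger factors at the top of the primitive endoderm programme, and forced expression of either drives mouse embryonic stem cells into it. Gata4 levels were 7.10, 7.03 and 7.09 with Tet1 shRNA 4, 7.03, 7.03 and 7.01 with Tet1 shRNA 5, and 6.94, 7.25 and 6.77 with scrambled. Gata6 levels were 6.99, 7.24 and 7.19 with Tet1 shRNA 4, 7.28, 7.14 and 7.18 with Tet1 shRNA 5, and 7.01, 7.17 and 6.80 with scrambled. For both genes the knockdown arrays overlapped the scrambled ones, whose spread was wider than that of any other group. The log2 changes were 0.09 and 0.04 for Gata4 and 0.14 and 0.20 for Gata6 with Tet1 shRNA 4 and 5 (SE 0.10 each, limma adjusted p = 0.698, 0.878, 0.455 and 0.249). In the Sin3A set Gata4 was at 8.14, 8.08 and 7.95 with Sin3A shRNA and 8.24, 7.98 and 8.24 with scrambled (log2 change -0.10 ± 0.09, SE, limma adjusted p = 0.475). Gata6 there was at 8.08, 8.03 and 7.83 with Sin3A shRNA, against 7.89, 7.92 and 7.99 with scrambled (0.05 ± 0.07, limma adjusted p = 0.699). Without scrambled replicate 2 the Gata6 values for Tet1 shRNA 4 and 5 were 0.23 and 0.29, and the Gata4 values 0.2152 and 0.1667, none of them called. Without scrambled replicate 3 of that set they were 0.0497 and 0.1081 for Gata6, and -0.0214 and -0.0699 for Gata4.

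SOX17 and SOX7 are related SoxF factors of the HMG-box family, both of which are expressed in primitive endoderm. Sox7 was the one regulator called in all 3 comparisons with scrambled. It was at 7.68, 7.91 and 7.85 with Tet1 shRNA 4, at 7.79, 7.91 and 7.83 with Tet1 shRNA 5, and at 6.90, 7.32 and 6.82 with scrambled. All 6 knockdown arrays lay above all 3 scrambled arrays, and scrambled replicate 2 came closest to them. The log2 changes were 0.80 ± 0.12 and 0.83 ± 0.12 (SE), or 1.74-fold and 1.77-fold, with limma adjusted p = 0.00235 and 0.00182. Without scrambled replicate 2 they were 0.95 and 0.98, and without scrambled replicate 3 they were 0.70 and 0.73. In the Sin3A set Sox7 was at 8.51, 8.52 and 8.54 with Sin3A shRNA, against 8.04, 8.03 and 8.13 with scrambled. The groups did not overlap, and the change was 0.45 ± 0.05 (SE), a 1.37-fold rise (limma adjusted p = 0.000694). Of all probe sets 1.69% were called higher in all 3 comparisons. All 16 alternatives tried for each Tet1 shRNA and all 12 for the Sin3A shRNA kept the Sox7 call.

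Sox17 moved less. It was at 6.13, 6.18 and 6.04 with Tet1 shRNA 4, at 6.15, 6.02 and 6.04 with Tet1 shRNA 5, and at 5.90, 6.10 and 5.71 with scrambled. The log2 changes of 0.21 and 0.17 did not pass (SE 0.10 each, limma adjusted p = 0.226 and 0.326), and without scrambled replicate 2 the value for Tet1 shRNA 4 was 0.31 (adjusted p = 0.0389). Without scrambled replicate 3 that value was 0.11 (limma adjusted p = 0.515). With Sin3A shRNA it was at 7.23, 7.36 and 7.22, against 7.03, 7.17 and 7.12 with scrambled. These groups did not overlap, but the change of 0.16 ± 0.06 (SE) missed the threshold (limma adjusted p = 0.101).

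FOXA2 is a forkhead factor and HNF4A a nuclear receptor, both used by visceral endoderm, where HNF4A controls secreted and lipid-handling proteins. Foxa2 was at 6.64, 6.81 and 6.87 with Tet1 shRNA 4, at 7.06, 6.72 and 6.87 with Tet1 shRNA 5, and at 6.87, 6.91 and 6.91 with scrambled. In the Sin3A set it was at 7.77, 7.62 and 7.71 with Sin3A shRNA, against 7.81, 7.61 and 7.67 with scrambled. Its changes were -0.12, -0.01 and, in the Sin3A set, 0.01, with groups that overlapped in every comparison (limma adjusted p = 0.493, 0.958 and 0.967). Hnf4a was at 7.03, 7.15 and 7.07 with Tet1 shRNA 4, at 6.93, 6.95 and 7.06 with Tet1 shRNA 5, and at 6.69, 6.94 and 6.59 with scrambled. The arrays of Tet1 shRNA 4 lay above all scrambled arrays, and those of Tet1 shRNA 5 overlapped scrambled replicate 2. With Tet1 shRNA 4 the change was 0.34 ± 0.09 (SE), a 1.27-fold rise with a limma adjusted p of 0.0345. The value of 0.24 ± 0.09 for Tet1 shRNA 5 did not pass (limma adjusted p = 0.125). Leaving out any 1 of 7 of the 9 arrays of the set ended the Hnf4a call for Tet1 shRNA 4 (adjusted p = 0.0534 to 0.118), while without scrambled replicate 2 Hnf4a passed for both Tet1 shRNAs (0.44 and 0.33). With Sin3A shRNA Hnf4a was at 7.66, 7.66 and 7.54, against 7.71, 7.56 and 7.64 with scrambled, a change of -0.02 ± 0.06 (SE, limma adjusted p = 0.885).

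DAB2 is an endocytic adaptor that links receptors of the lipoprotein receptor family to clathrin, and it is needed for the ordered endoderm layer of the mouse embryo. Dab2 was the one regulator that fell. It was at 6.98, 7.27 and 7.52 with Sin3A shRNA, against 8.04, 8.17 and 8.14 with scrambled. All Sin3A shRNA arrays lay below the scrambled ones, and they differed among themselves by more than the scrambled arrays did. The change was -0.86 ± 0.12 (SE), a 1.81-fold lower level (limma adjusted p = 0.0021). In the Tet1 set Dab2 was at 6.46, 6.35 and 6.46 with Tet1 shRNA 4, at 6.33, 6.29 and 6.25 with Tet1 shRNA 5, and at 6.78, 6.52 and 6.79 with scrambled. All 6 knockdown arrays lay below the 3 scrambled ones. The change of -0.41 ± 0.08 passed for Tet1 shRNA 5 (SE, limma adjusted p = 0.00807), and that of -0.28 ± 0.08 for Tet1 shRNA 4 did not (limma adjusted p = 0.0554). Without scrambled replicate 2, the lowest scrambled array for this gene, the value for Tet1 shRNA 4 was -0.36 (adjusted p = 0.00599). Without scrambled replicate 3 it was -0.23 (limma adjusted p = 0.179).

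PDGFRA is a receptor tyrosine kinase whose expression marks early primitive endoderm cells, and cubilin, the product of Cubn, is an endocytic receptor of visceral endoderm. Pdgfra was at 6.51, 6.57 and 6.33 with Tet1 shRNA 4, at 6.39, 6.30 and 6.51 with Tet1 shRNA 5, and at 6.02, 6.27 and 6.17 with scrambled. Both knockdowns lay above all scrambled arrays, but the changes of 0.32 and 0.25 missed the threshold (SE 0.09 each, limma adjusted p = 0.0526 and 0.109). Pdgfra passed with Tet1 shRNA 4 without scrambled replicate 2 (0.38, limma adjusted p = 0.0343) and without replicate 3 of Tet1 shRNA 4 (0.39, limma adjusted p = 0.0402). In the Sin3A set its groups overlapped, at 7.58, 7.52 and 7.48 with Sin3A shRNA and 7.34, 7.53 and 7.44 with scrambled (0.09 ± 0.06, SE, limma adjusted p = 0.342). Cubn was at 5.80, 5.90 and 5.83 with Tet1 shRNA 4, at 5.97, 6.06 and 6.19 with Tet1 shRNA 5, and at 5.76, 5.73 and 5.42 with scrambled. Both knockdowns lay above scrambled, and the change passed for Tet1 shRNA 5 (0.44 ± 0.10, SE, limma adjusted p = 0.015) but not for Tet1 shRNA 4 (0.21 ± 0.10, limma adjusted p = 0.246). The Cubn call was lost without replicate 3 of Tet1 shRNA 5 (adjusted p = 0.063). With Sin3A shRNA Cubn was at 6.69, 6.99 and 6.92, against 6.74, 6.73 and 6.56 with scrambled (0.19 ± 0.09, SE, limma adjusted p = 0.162), and it passed without Sin3A shRNA replicate 1 (0.28, adjusted p = 0.0335).

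**Figure D2:**
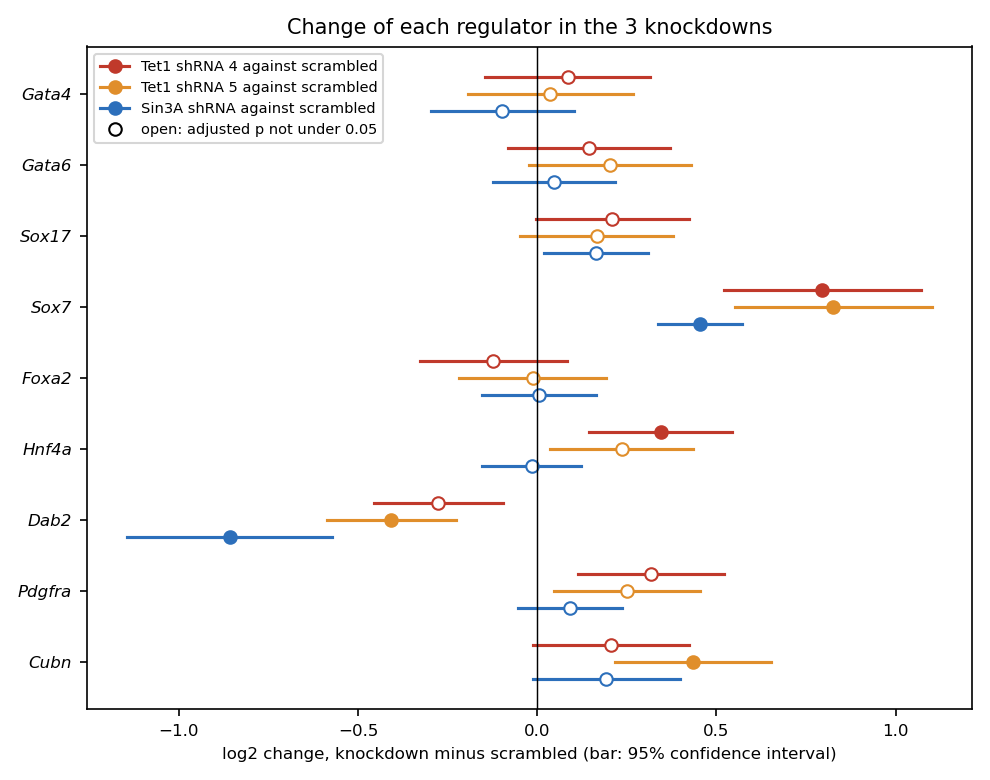
Log2 change of each regulator in the 3 knockdowns against the scrambled arrays of the same set, with 95% confidence intervals from limma (3 arrays per group). Filled points passed the adjusted p threshold of 0.05, and open points did not. Sox7 has a filled point in all 3 comparisons, Dab2 in 2, and Gata4 and Foxa2 lie close to 0.

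The hairpins against Tet1 were compared with each other, and the Tet1 effect with the Sin3A effect. None of the 9 regulators differed between Tet1 shRNA 5 and Tet1 shRNA 4 in limma at the adjusted threshold, against 0.141% of all probe sets (30 of 21212). At an unadjusted p under 0.05, reached by 8.66% of all probe sets, 1 of the 9 differed. This was Cubn, with a difference of 0.23 ± 0.10 (SE, limma adjusted p = 0.549) and all arrays of Tet1 shRNA 5 above those of Tet1 shRNA 4, as for 8.07% of all probe sets. For Sox7 the hairpins differed by 0.03, with a 95% confidence interval of -0.24 to 0.31. Subtracting the Sin3A effect from the average of both Tet1 effects gave a called difference for 1 of 9 regulators, against 20% of all probe sets (4241 of 21212). This was Dab2, at 0.52 ± 0.14 (SE, limma adjusted p = 0.0195), since its fall was larger with the Sin3A shRNA. For Sox7 the difference of 0.36 ± 0.14 did not pass (SE, limma adjusted p = 0.0835), although it did without scrambled replicate 2 of the Tet1 set (0.51, adjusted p = 0.00114). For Hnf4a it was 0.31 ± 0.11 (SE, limma adjusted p = 0.0565), and without that array 0.40 (adjusted p = 0.00392). Leaving out each of the 15 arrays in turn gave 1 call for either gene. The Sox7 value then ran from 0.26 to 0.51 (limma adjusted p = 0.00114 to 0.206). That of Hnf4a ran from 0.23 to 0.40 (limma adjusted p = 0.00392 to 0.148). Since the sets appear to have been normalized separately, a difference in scale between the sets cannot be told apart from a difference in effect.

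Paralogues and direct partners of the regulators moved in both directions. Of 18 such genes 3 rose and 1 fell with Tet1 shRNA 4, 4 rose and 1 fell with Tet1 shRNA 5, and 4 rose and 3 fell with Sin3A shRNA. The share called was 22.2%, 27.8% and 38.9%, against 11.6%, 13.8% and 24.8% of all probe sets. Dab1, the neuronal relative of Dab2, was at 9.56, 9.28 and 9.50 with Tet1 shRNA 4, at 9.12, 9.18 and 9.41 with Tet1 shRNA 5, and at 8.85, 8.28 and 8.83 with scrambled. With Sin3A shRNA it was at 9.73, 9.67 and 9.83, against 9.18, 9.23 and 9.14 with scrambled. Dab1 thus rose in all 3 comparisons (0.79 ± 0.15, 0.58 ± 0.15 and 0.56 ± 0.06, SE, limma adjusted p = 0.00838, 0.032 and 0.000536), where Dab2 was lower in all arrays.

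Among the partners of cubilin, Lrp2, which encodes the receptor megalin, rose with Tet1 shRNA 5 (0.26 ± 0.07, limma adjusted p = 0.0374, SE) and with Sin3A shRNA (0.51 ± 0.08, limma adjusted p = 0.0037). Its value with Tet1 shRNA 4 was 0.00056. Its levels were 10.22, 10.41 and 10.56 with Sin3A shRNA, against 9.89, 9.88 and 9.91 with scrambled. Amn, whose product anchors cubilin in the membrane, was not called (-0.19, -0.03 and 0.11). Pdgfa, which encodes the main ligand of PDGFRA in the early embryo, rose in all 3 comparisons (0.44 ± 0.07, 0.43 ± 0.07 and 0.29 ± 0.06, SE, limma adjusted p = 0.00295, 0.00332 and 0.0077). Pdgfc, another ligand of that receptor, fell with both Tet1 shRNAs (-0.55 and -0.55 ± 0.07, SE, limma adjusted p = 0.000593 and 0.000597), and its value of -0.04 with Sin3A shRNA did not pass. Zfpm1, a cofactor of GATA proteins, rose with Sin3A shRNA (0.39 ± 0.06, SE, limma adjusted p = 0.00253), and Gata3, a trophoblast member of the GATA family, rose with both Tet1 shRNAs (0.36 and 0.57) and fell with Sin3A shRNA (-0.42).

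**Figure D3:**
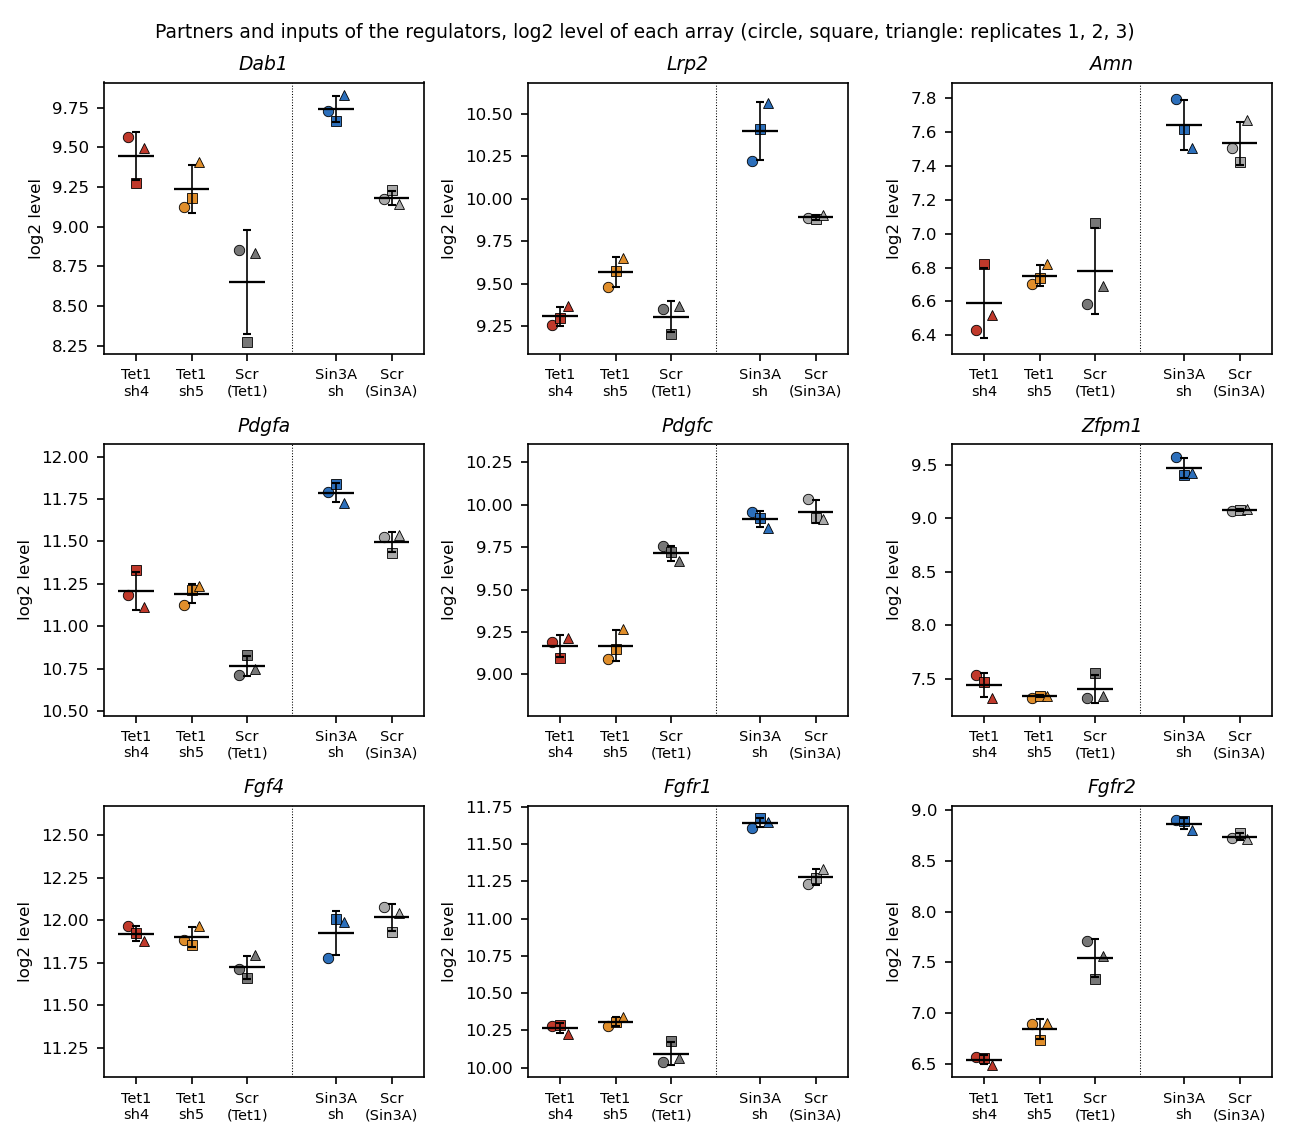
Log2 level on every array of Dab1, the cubilin partners Lrp2 and Amn, the ligands Pdgfa and Pdgfc, the GATA cofactor Zfpm1, and Fgf4, Fgfr1 and Fgfr2, with the mean and SD of 3 arrays per group. Groups and symbols are as in the plot of the regulators, and levels are not comparable across the dotted line. Dab1 and Pdgfa lay above scrambled in all 3 knockdowns, and Fgfr2 lay below scrambled with both Tet1 shRNAs and above it with Sin3A shRNA.

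Genes of the FGF input that favours primitive endoderm moved in both directions. Of 16 measured genes 3 rose and 2 fell with Tet1 shRNA 4, 5 and 2 with Tet1 shRNA 5, and 5 and 1 with Sin3A shRNA. The share called was 31.2%, 43.8% and 37.5%, against 11.6%, 13.8% and 24.8% of all probe sets. Fgfr2 was at 6.57, 6.56 and 6.49 with Tet1 shRNA 4, at 6.90, 6.73 and 6.90 with Tet1 shRNA 5, and at 7.71, 7.34 and 7.56 with scrambled. It fell by 0.9995 and 0.70 on the log2 scale (SE 0.09 each, limma adjusted p = 0.000141 and 0.00106), and its value with Sin3A shRNA was 0.13 (limma adjusted p = 0.117). Fgfr1 rose with Tet1 shRNA 5 (0.21) and Sin3A shRNA (0.36), and its value of 0.17 with Tet1 shRNA 4 did not pass. Fgf4, the ligand, was not called (0.20, 0.18 and -0.09). Etv4, a transcription factor gene induced by the pathway, rose in all 3 comparisons (0.66, 0.76 and 0.45), as did Spred1, a feedback inhibitor (0.32, 0.43 and 0.73). Map2k1, which encodes the kinase MEK1, fell in all 3 (-0.34, -0.41 and -0.20).

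On the epiblast side Nanog was not called with either Tet1 shRNA (0.10 and -0.02) and fell with Sin3A shRNA (-0.27 ± 0.06, SE, limma adjusted p = 0.00976). Pou5f1 was not called (0.06, 0.05 and 0.08). Of 12 epiblast and pluripotency factors 4 rose and 0 fell with Tet1 shRNA 4, 3 rose and 1 fell with Tet1 shRNA 5, and 2 rose and 3 fell with Sin3A shRNA. The share called was 33.3%, 33.3% and 41.7%, against 11.6%, 13.8% and 24.8% of all probe sets. Tbx3, a T-box factor of naive stem cells that can also promote extraembryonic endoderm, rose with both Tet1 shRNAs (0.98 and 0.69) and fell with Sin3A shRNA (-0.20, limma adjusted p = 0.0279). Klf4 rose in all 3 comparisons (0.47, 0.27 and 0.41). Klf2 fell with Sin3A shRNA, at a mean level of 10.70 against 11.34 with scrambled, and was not called with either Tet1 shRNA.

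Genes of the derivatives of primitive endoderm did not move as one group. Of 19 visceral endoderm genes 3 rose and 2 fell with each Tet1 shRNA, and 2 rose and 4 fell with Sin3A shRNA. The share called was 26.3%, 26.3% and 31.6%, against 11.6%, 13.8% and 24.8% of all probe sets. Trf, which encodes transferrin, rose with the Tet1 shRNAs (0.87 ± 0.10 and 1.08 ± 0.10, SE, limma adjusted p = 0.000351 and 0.000104) and fell with Sin3A shRNA (-0.31 ± 0.08, limma adjusted p = 0.0293). Rbp4, the plasma retinol carrier, rose with both Tet1 shRNAs (0.58 and 0.47), and Spink1, a secreted trypsin inhibitor, fell with both (-1.05 and -0.58). The abundant apolipoprotein gene Apoe fell in all 3 comparisons (-0.72, -1.18 and -0.62). Of 7 anterior visceral endoderm genes 0 rose, and 1, 2 and 2 fell with Tet1 shRNA 4, Tet1 shRNA 5 and Sin3A shRNA. Of all probe sets 11.6%, 13.8% and 24.8% were called in these comparisons, and 4.71%, 5.46% and 12.6% were called lower. Otx2 fell in all 3 comparisons (-0.32, -0.39 and -1.09) and Lefty1 fell with Tet1 shRNA 5 (-0.92) and Sin3A shRNA (-2.31). Only these 2 genes of the list were called, and its median change was -0.03, -0.08 and -0.0013.

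Of 16 parietal endoderm and basement membrane genes 4 rose and 1 fell with Tet1 shRNA 4, 3 rose and 1 fell with Tet1 shRNA 5, and 5 rose and 3 fell with Sin3A shRNA. The share called was 31.2%, 25% and 50%, against 11.6%, 13.8% and 24.8% of all probe sets. Srgn, a proteoglycan gene, had the largest rise with the Tet1 shRNAs (1.36 ± 0.10 and 1.01 ± 0.10, SE, limma adjusted p = 4.46e-05 and 0.000247), and its value with Sin3A shRNA was -0.26 (limma adjusted p = 0.0614). Lama1, a laminin chain gene, rose in all 3 comparisons (0.59, 0.53 and 0.81), and Sparc rose with both Tet1 shRNAs (0.48 and 0.68). Lamb1, another laminin chain gene, fell with both (-0.71 and -0.52). Snai1 was among the 3 genes that fell with Sin3A shRNA (mean level 8.59 against 9.19 with scrambled). The share of genes called in these lists stands beside the background of 11.6%, 13.8% and 24.8% in the plot of the lists.

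**Figure D4:**
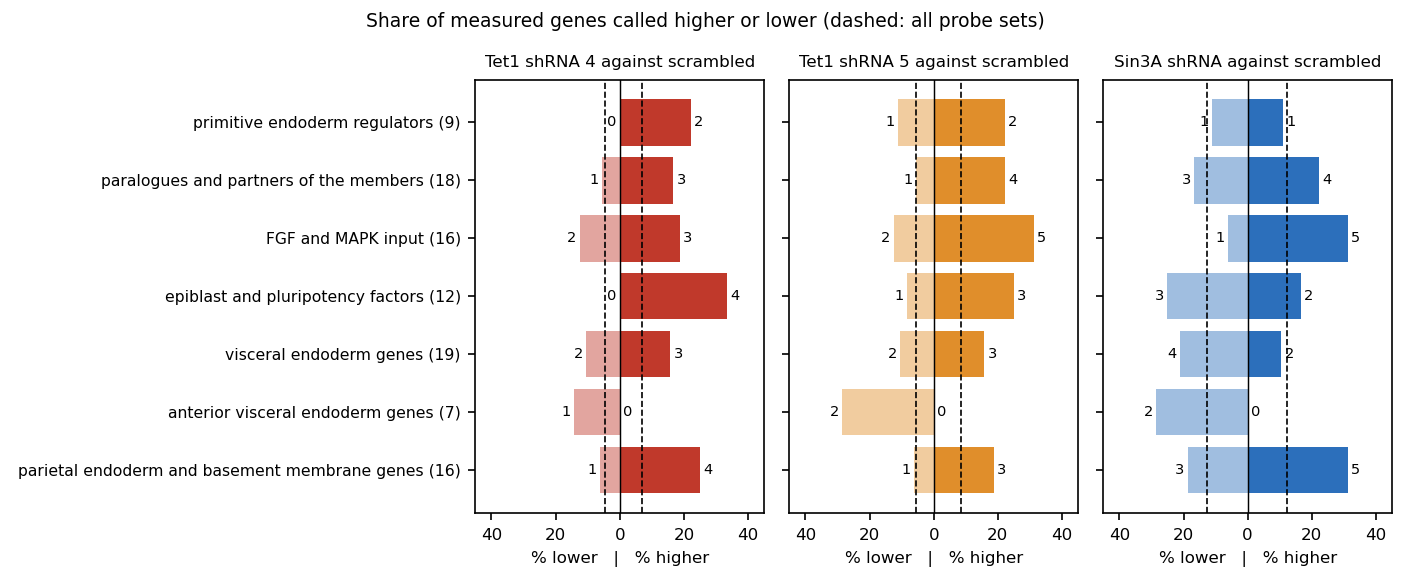
Share of the measured genes of each list (number in brackets) called higher, to the right, or lower, to the left, in each knockdown against its scrambled group, with the number of genes at the bar ends. Dashed lines give the share of all 21212 probe sets called in that direction. The lists hold 7 to 19 genes, so 1 gene is a large share of a list.

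Markers of other lineages that share these regulators were followed beside them. Of 9 definitive endoderm and mesendoderm markers 1 rose and 1 fell with Tet1 shRNA 4, 1 rose and 0 fell with Tet1 shRNA 5, and 2 rose and 1 fell with Sin3A shRNA. The share called was 22.2%, 11.1% and 33.3%, against 11.6%, 13.8% and 24.8% of all probe sets. Eomes rose in all 3 comparisons (1.28, 1.395 and 0.31). Nodal fell with Tet1 shRNA 4 (mean level 9.91 against 10.21). With Sin3A shRNA Cxcr4 also rose (7.45 against 7.13) and Trh fell (10.82 against 12.03). For these markers the median change was 0.0057, -0.0132 and 0.0098. The mean log2 level of these markers per array was 7.42 to 7.51 with Tet1 shRNA 4, 7.46 to 7.53 with Tet1 shRNA 5 and 7.32 to 7.43 with scrambled, and 8.20 to 8.23 with Sin3A shRNA and 8.27 to 8.33 with scrambled. Of 15 fibroblast and mesenchyme markers, cells that also use Pdgfra, 2 rose and 0 fell with Tet1 shRNA 4, 2 and 1 with Tet1 shRNA 5, and 2 and 2 with Sin3A shRNA, among them Thy1 (0.82, 0.81 and -0.23) and Vim (0.70, 0.83 and 0.38). Pdgfrb fell with Sin3A shRNA (mean level 7.69 against 8.26), and Fn1 with Tet1 shRNA 5 (12.52 against 12.76). For the 15 markers the median change was -0.03, -0.03 and -0.09. Of them 13.3%, 20% and 26.7% were called, against 11.6%, 13.8% and 24.8% of all probe sets. Their mean level was 7.001 to 7.13 with Tet1 shRNA 4, 7.01 to 7.09 with Tet1 shRNA 5 and 6.92 to 7.10 with scrambled, and 7.92 to 8.01 with Sin3A shRNA and 7.97 to 8.05 with scrambled. Trophoblast markers moved both ways, with 4 of 13 up and 5 down for Tet1 shRNA 4, 3 and 4 for Tet1 shRNA 5, and 2 and 5 for Sin3A shRNA. The share called was 69.2%, 53.8% and 53.8%, against 11.6%, 13.8% and 24.8% of all probe sets. Krt8, Krt18 and Tfap2c were among those that fell in all 3 comparisons, while Tead4 and Eomes rose in all 3. Mean Krt8 levels were 8.46 and 8.47 with Tet1 shRNA 4 and 5 against 9.86, and 10.60 with Sin3A shRNA against 11.61. Of 7 neuroectoderm markers 0 rose and 3 fell in each comparison, namely Pax6, Nes and Otx2. They make up 42.9% of that list, against 4.71%, 5.46% and 12.6% of all probe sets called lower. Otx2 is also counted above among the anterior visceral endoderm genes. The part of other cell types in the values of the regulators was not tested.

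The genes whose pattern over the 15 arrays was most like that of a called regulator were found by Pearson's r on values centred within each set, among 18151 probe sets. For Sox7 they were Erf, which encodes an ETS repressor under ERK control (r = 0.968), Cluh (0.964) and Stk32a (0.96). For Dab2 they were Hhip, which encodes a hedgehog-binding membrane protein (0.958), Gstcd (0.957) and Mei4 (0.944). Hhip fell in all 3 comparisons, by 0.41, 0.57 and 1.30 on the log2 scale. For Hnf4a they were Lingo1 (0.94), Rac2 (0.925) and Atn1 (0.914), and for Cubn Htr1b (0.936), Otop1 (0.903) and Commd5 (0.896). These values describe 15 arrays in 5 groups and were picked as the highest of many, so no test is attached to them.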

How the data were processed

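Expression was measured on Affymetrix arrays with biotin-labelled RNA from 15 samples, 3 in each of 5 groups, per the labels' protocols. The authors deposited log2 expression values for 21212 probe sets. Per the submitters' processing notes affy, RMA and limma were used, with versions and order not given in the sources used here. In the Tet1 set 49.1% of probe sets, among them those of Gata4, Sox17 and Foxa2, held equal values on at least 2 arrays, and in the Sin3A set 0 did.

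A single symbol was annotated to 18786 probe sets, while 6 had more than 1 and 2420 had none. All probe sets were tested two-sided by lmFit and eBayes (limma 3.58.1, R 4.3.3), with Benjamini-Hochberg adjustment over all of them: 9 arrays for the Tet1 set, 6 for the Sin3A set and all 15 for the difference of effects. The code was tested on simulated data. The number of arrays limits the precision. Same-numbered arrays were not paired by the labels, so the main fit used no block. Their deviations from the group means correlated between -0.287 and 0.517 in the Tet1 set and between -0.274 and 0.021 in the Sin3A set. For differently numbered arrays the ranges were -0.455 to 0.281 and -0.233 to 0.239. Same-numbered arrays of Tet1 shRNA 4 and scrambled correlated at 0.274, 0.517 and 0.171, so a pairing there is not excluded. A replicate block was tried as an alternative.

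The regulators and all 11 other gene lists (135 of 142 symbols of the 12 lists were measured) were chosen with earlier results of these data known. Other genes could be named under a rule: up to 5 called genes per list, starting from the largest changes. Listed direct partners could be named whatever their values, and the 3 genes most alike in pattern were named. Not every called gene that qualified was named, so the named genes are not always the largest changes of a list. Alternatives were repeated quantile normalization, median centring, a filter at the 25th percentile of mean level, eBayes with trend and robust settings, a replicate block, fits of fewer or more groups, and leaving out arrays. No regulator had another probe set to try.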

Additional observations from a re-analysis of the deposited data

Results flagged for a closer look

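The fall of Dab2 differed between the knockdowns. The mean Tet1 effect minus the Sin3A effect was 0.52 ± 0.14 on the log2 scale (SE, limma adjusted p = 0.0195), and all 21 alternatives kept the call, with values of 0.38 to 0.65. The limma adjusted p under them ran from 0.0023 to 0.0494, so the weakest lay just under the threshold. A difference in scale between the sets cannot be told apart from this difference. Dab2 was lower in 6 of 6 arrays of the Tet1 shRNAs and in 3 of 3 of the Sin3A shRNA than in any scrambled array of the same set.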

How the results depend on the processing

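Of 729 values of the 9 regulators in 5 comparisons under the alternatives, 686 kept their direction and their side of the threshold, 9 lost a call, 19 gained one and 15 changed sign. The number called with Tet1 shRNA 4 was 2 as deposited, 4 with the filter on low levels (Dab2 and Pdgfra added, with fewer probe sets tested), 1 with only the 2 groups in the fit, and 1 to 5 when single arrays were left out. The count for the difference between the Tet1 and Sin3A effects was 1 as deposited, 2 after repeated quantile normalization or with the filter (Hnf4a added), 2 with the replicate block (Sox7 added, adjusted p = 0.0479), 3 without both arrays that deviated alike, and 1 to 3 when single arrays were left out. With the replicate block the counts for Tet1 shRNA 4, Tet1 shRNA 5 and Sin3A shRNA against scrambled were 2, 3 and 2, and that between the Tet1 hairpins was 0, the same as without it. The count for Tet1 shRNA 5 ranged from 2 to 4 and that for Sin3A shRNA from 2 to 3. Pdgfra passed with both Tet1 shRNAs after repeated quantile normalization (0.34 and 0.28). The 15 sign changes came from leaving out single arrays and concerned 9 values near 0 that were not called. Their ranges were -0.0214 to 0.2152 and -0.0699 to 0.1667 for Gata4 with Tet1 shRNA 4 and 5, and -0.1005 to 0.0676 for Foxa2 with Tet1 shRNA 5. Between the hairpins, Tet1 shRNA 5 minus Tet1 shRNA 4, they were -0.0161 to 0.1077 for Gata6 and -0.0366 to 0.0805 for Sox7. With Sin3A shRNA they were -0.0028 to 0.1222 for Gata6, -0.0377 to 0.0631 for Foxa2 and -0.0525 to 0.0222 for Hnf4a, and for the difference of effects -0.0718 to 0.123 for Sox17. The cause of these changes was not tested.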
